A study of Homo sapiens with 12 samples.

Results

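The expressed LINC genes are 143 of the 60666 human genes measured in DLD-1, a cell line from a human colorectal adenocarcinoma, in an experiment that removed 1 of 2 transcription elongation factors. LINC symbols are given to long intergenic non-coding RNA genes. Genes were chosen by their measured levels: a gene was taken when its symbol was LINC followed by digits and its mean over the libraries of at least 1 of 6 groups reached 1 CPM, its count scaled to human counts of 1000000 in each library. The deposited table lists 2135 LINC genes, of which 1010 had no count in any of the 12 libraries. Every cell expressed OsTIR1, the plant receptor that marks a protein carrying an auxin-inducible degron (AID) for destruction, constitutively. SPT6-AID OsTIR1 cells were kept 2 h and 6 h in 500 µM auxin and set against SPT6-AID OsTIR1 cells at 0 h. PAF1-AID OsTIR1 cells kept 2 h and 6 h in 500 µM auxin were set against PAF1-AID OsTIR1 cells at 0 h. Each group had 2 libraries of poly(A)-selected RNA. The labels do not say whether those libraries came from separate cultures or whether a line is 1 clone, so a p-value reflects how far libraries differ, and that difference may be technical. Untagged cells given auxin are not analysed here, so a change from 0 h combines loss of the protein with any effect of auxin.

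SPT6, encoded by SUPT6H, moves along genes with elongating RNA polymerase II and, as a histone chaperone, rebuilds nucleosomes in its wake. PAF1 is a subunit of the PAF1 complex, which rides on elongating polymerase and helps it move from the promoter-proximal pause into the gene body. Long intergenic RNAs are made by the same polymerase as mRNAs, are usually capped and often spliced, and are as a class less abundant than mRNAs. Many are short-lived, because the nuclear RNA exosome degrades them, and the Integrator complex ends transcription early at many of their genes. A few LINC genes have a described RNA and a name from the literature, while most carry a serial number.

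Human counts per library ran from 29961183 to 110340057, so 1 CPM stood for 30.0 to 110.3 counts. The fly counts found in each library ran from 1661945 to 5564723. Between the libraries of a group the chi-square per degree of freedom over genes was 34.1 to 63.1, so no library was a copy of its partner. The degron acts on protein, and SUPT6H and PAF1 mRNA were not used as a check of depletion. Of 12 colorectal epithelium markers, 9 reached 1 CPM in every group, among them EPCAM (801.8 to 1032 CPM) and CDX2 (124 to 308 CPM), while CDX1 had no count in any library and VIL1 was at most 0.25 CPM. Blood, fibroblast and endothelial markers were near 0 apart from HBB (7.17 to 37.9 CPM), COL1A1 (0.591 to 3.60 CPM), VWF (0.364 to 1.98 CPM), CD14 and PECAM1. Sums over the 12 colorectal epithelium markers were 5966 to 6466 CPM at 6 h and 5324 to 5467 CPM at 0 h in SPT6-AID cells, and 5166 to 5387 CPM at 6 h and 4117 to 4977 CPM at 0 h in PAF1-AID cells. Sums over 4 endothelial markers were likewise higher at 6 h without overlap (1.94 to 2.52 and 0.382 to 1.27 CPM in SPT6-AID cells; 0.531 to 0.845 and 0.393 to 0.468 CPM in PAF1-AID cells), sums over 6 fibroblast markers were lower (1.25 to 1.30 and 1.47 to 2.33 CPM; 0.608 to 1.63 and 1.90 to 3.80 CPM), and sums over 6 blood markers overlapped in SPT6-AID cells (13.0 to 39.7 and 8.48 to 24.7 CPM) and were higher in PAF1-AID cells (28.8 to 29.1 and 23.7 to 25.2 CPM). Their part in the results was not tested.

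The levels themselves chose the genes and are given as a description. Of the 143 genes, 82 reached 1 CPM in all 6 groups, 35 in 2 to 5 groups and 26 in 1 group. Of those 26, 20 reached it at 6 h in SPT6-AID cells. The other genes of this kind were 2 at 0 h and 2 at 2 h in SPT6-AID cells, and 2 at 0 h in PAF1-AID cells. By the number of genes at 1 CPM or more, SPT6-AID cells had 104, 105 and 129 at 0, 2 and 6 h, and PAF1-AID cells had 103, 101 and 101. LINC02802 (1.01 CPM in its highest group), LINC00997 (1.03 CPM) and LINC01134 (1.06 CPM) were just inside the limit, and LINC02818 (0.995 CPM), LINC00299 (0.974 CPM) and LINC02700 (0.972 CPM) just outside it. A gene that entered through 1 group had to be higher there, so counts of changed genes below describe the set chosen in this way.

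Most of the genes were rare. Over the 12 libraries 67 averaged under 2 CPM and 14 averaged 10 CPM or more. LINC02086, which lies on the plus strand of chromosome 17 (GRCh38, 48646923 to 48707346) 13351 bases from HOXB7, was the most abundant by count, at 94.7 CPM over the 12 libraries. It held 7.02% to 17.3% of all counts of the 143 genes. In SPT6-AID cells it had 116 and 74.4 CPM at 0 h, 118 and 69.2 CPM at 2 h, and 90.1 and 45.3 CPM at 6 h. In PAF1-AID cells it had 140 and 95.01 CPM at 0 h, 109 and 94.8 CPM at 2 h, and 93.8 and 90.3 CPM at 6 h. The 2 libraries of SPT6-AID cells differed more from each other than the times did. Within each replicate number the level was lower at 6 h than at 0 h. It was 90.1 against 116 CPM in replicate 1 and 45.3 against 74.4 CPM in replicate 2. No comparison of LINC02086 passed the test, which does not pair libraries by replicate number.

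After LINC02086 came LINC01128 (29.8 CPM), LINC00205 (24.2 CPM), LINC00511 (22.4 CPM), LINC01106 (20.6 CPM), LINC01184 (19.5 CPM), LINC01278 (18.95 CPM), LINC02210 (16.1 CPM), LINC00910 (14.3 CPM) and LINC01123 (13.7 CPM). Counts grow with transcript length, so the order of genes was also taken per kilobase of the deposited transcript length. On that scale LINC02086 led at 24.6 CPM per kb, followed by LINC00674 (7.90 CPM per kb), LINC01106 (6.74 CPM per kb), LINC02331 (5.75 CPM per kb) and LINC00888 (5.49 CPM per kb). LINC00511 and LINC01128, whose deposited transcript lengths are 27654 and 15682 bases, were at 0.812 and 1.90 CPM per kb. LINC01106 and LINC01123 share near-identical sequence, so reads may have been split between them. The summed level of the 143 genes was 701.3 and 588 CPM at 0 h, 737 and 608 CPM at 2 h, and 819 and 646 CPM at 6 h in SPT6-AID cells, with replicate 1 above replicate 2 at each time. In PAF1-AID cells it was 808 and 645 CPM at 0 h, 678 and 640.3 CPM at 2 h, and 633 and 638 CPM at 6 h.

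After 6 h in auxin SPT6-AID cells differed from 0 h in 44 of the 143 LINC genes: 33 rose and 11 fell. Among all 20791 genes tested 25.2% were called in either direction (quasi-likelihood test of edgeR, p adjusted by Benjamini-Hochberg to at most 0.05), 8.76% higher and 16.4% lower, against 23.1% higher and 7.69% lower for the LINC genes. The median log2 fold change was 0.25 for the LINC genes and 0.04 for all genes tested. The rule itself admitted genes for being high at 6 h: of the 20 genes that reached 1 CPM in SPT6-AID cells at 6 h alone, 10 rose and 0 fell. Among the 82 genes at 1 CPM or more in every group 14 rose and 6 fell, with a median of 0.10. Among the 95 genes at 1 CPM or more at 0 h in both lines, 14 rose and 10 fell, with a median of -0.01. This choice does not use the treated libraries, but it uses the 0 h libraries from which the change is measured. It can therefore favour genes that fell, and the set of all genes tested was not chosen in this way. The 25.3% called in either direction was close to the 25.2% of all genes. The directions differed: more of the 95 rose than fell, whereas among all genes 8.76% rose and 16.4% fell. Genes that rose had a median of 0.864 CPM at 0 h, and 18 of the 33 were under 1 CPM there, whereas those that fell had a median of 3.23 CPM. Genes under 1 CPM at 0 h could enter only by reaching it in another group, so the rule itself shapes this contrast. RNA from bulk cells does not tell fewer expressing cells from less RNA per cell.

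**Figure D1:**
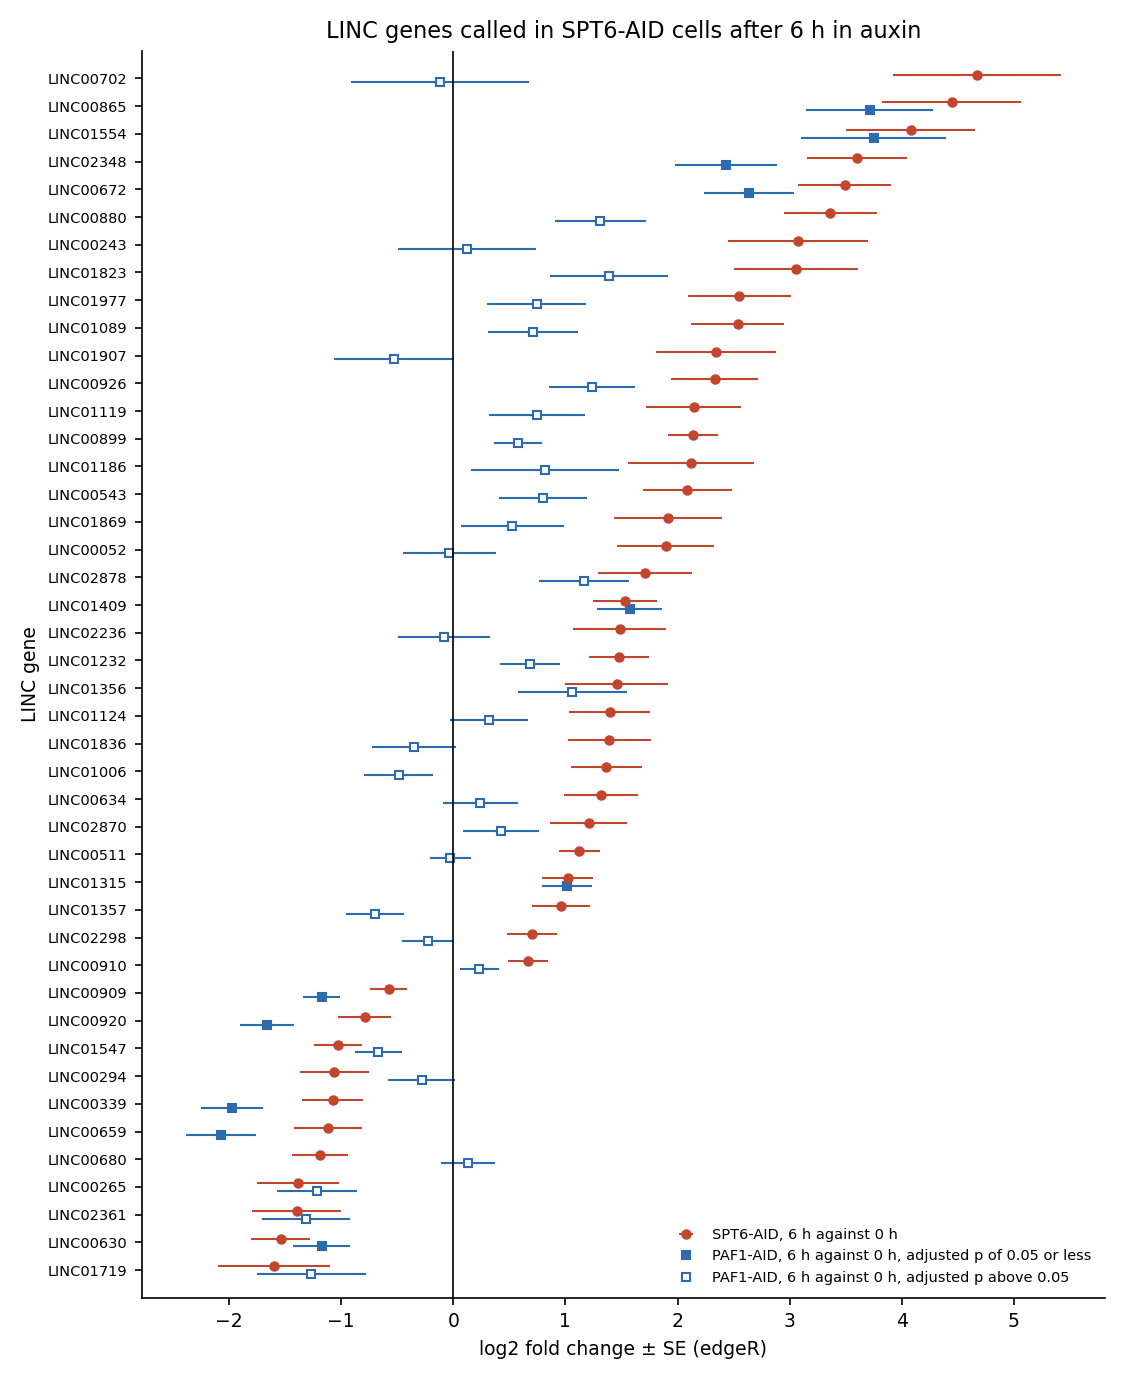
Log2 fold change at 6 h against 0 h with its standard error (horizontal axis) for the 44 LINC genes called in SPT6-AID cells (vertical axis), in SPT6-AID cells (red circles) and PAF1-AID cells (blue squares, filled where the adjusted p was at most 0.05). Changes in SPT6-AID cells run from -1.60 for LINC01719 to 4.67 for LINC00702, and 11 of the 44 genes have a filled square.

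Of the 8 genes with the largest fold changes, LINC00702, LINC01554, LINC00880, LINC00243 and LINC01823 reached 1 CPM in SPT6-AID cells at 6 h alone, and LINC00865 and LINC02348 at 6 h in the 2 lines alone. These 7 had to be higher there to be included, so their values describe the choice. LINC00702 is an intergenic gene on the minus strand of chromosome 10 (4201141 to 4243912). It had 2.20 and 5.31 CPM in SPT6-AID cells at 6 h, against 0.0728 and 0.218 CPM at 0 h, a log2 fold change of 4.67 ± 0.75 (SE). The libraries did not overlap, although those at 6 h were themselves far apart. LINC00865 followed at 4.45 ± 0.62 and LINC01554, a liver-enriched RNA described in hepatocellular carcinoma, at 4.08 ± 0.58. Both were nearly silent before auxin, with 5 and 8 counts over the pair of 0 h libraries. Taken from counts alone, the ratio of 6 h to 0 h was 24.1 (95% exact interval for counting error 9.90 to 76.1) for LINC00865 and 18.02 (8.79 to 42.9) for LINC01554. The log2 fold change was 3.60 ± 0.45 for LINC02348, 3.36 ± 0.41 for LINC00880, 3.08 ± 0.62 for LINC00243 and 3.06 ± 0.55 for LINC01823. LINC00672, at 1 CPM or more at 2 h and 6 h in both lines, rose by 3.49 ± 0.41. It averaged under 1 CPM at 0 h in both lines, so it too was included through groups where it was higher.

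LINC00899, a single-exon RNA on chromosome 22 described as a repressor of the microtubule-binding TPPP gene, had 26.3 and 17.8 CPM in SPT6-AID cells at 6 h, against 5.40 and 4.51 CPM at 0 h, a rise of 2.14 ± 0.22 (adjusted p = 0.000201, edgeR). LINC01089, described as an RNA that epidermal growth factor lowers in mammary cells, had 18.4 and 12.6 CPM at 6 h, against 3.73 and 1.60 CPM at 0 h, a rise of 2.54 ± 0.42. Of its exonic bases 41.7% are shared with another gene on the same strand and 53.8% with one on the other strand, so its count is uncertain. LINC00511, described as an RNA raised in several carcinomas, was the most abundant gene that rose, with 43.7 and 32.3 CPM at 6 h against 19.4 and 15.3 CPM at 0 h, or 1.12 ± 0.18. With fly counts as library sizes it was 0.70 and did not pass (adjusted p = 0.060, edgeR). LINC00926 and LINC00543 rose by 2.33 ± 0.39 and 2.09 ± 0.40. The 5 genes in this paragraph were also called without any 1 of the 4 libraries.

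Decreases were smaller. LINC01719 fell to 0.954 and 0.434 CPM in SPT6-AID cells at 6 h, against 1.87 and 2.35 CPM at 0 h, a log2 fold change of -1.60 ± 0.50 (adjusted p = 0.0389, edgeR). It has near-identical copies of up to 869 bases in 3 other genes. LINC00630, on the X chromosome, fell to 1.04 and 0.634 CPM at 6 h, against 2.42 and 2.47 CPM at 0 h, or -1.54 ± 0.27. The 2 groups did not overlap for LINC00630. LINC02361 (-1.40), LINC00265 (-1.38), LINC00680 (-1.19), LINC00659 (-1.12), LINC00339 (-1.08), LINC00294 (-1.06), LINC01547 (-1.03), LINC00920 (-0.79) and LINC00909 (-0.58) also fell. LINC00265 and LINC00680 hold near-identical copies of other genes as well. Of the 11 genes, LINC00630, LINC00680 and LINC01547 kept their call in every leave-out; leaving out 1 library took the adjusted p of the other 8 to as high as 0.112 to 0.213 (edgeR).

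Of the 44 calls, 20 held whichever of the 4 libraries was left out. The count of calls was 23 without SPT6-AID 0h replicate 2, 28 without SPT6-AID 0h replicate 1 and 29 without SPT6-AID 6h replicate 2. A fit with the replicate number as a block called more LINC genes, as given in the closing sections. The count of calls also depended on the scale. With the fly counts as library sizes, the median of all genes tested was -0.39 and that of the LINC genes was -0.17, and 19 LINC genes were called higher and 20 lower; of all genes tested 32.7% were called on that scale, 4.61% higher and 28.1% lower.

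After 2 h in auxin LINC00672 was the 1 LINC gene called in SPT6-AID cells, where 0.548% of all genes were called, 0.0866% higher and 0.462% lower. It had 2.86 and 1.63 CPM at 2 h, against 0.528 and 0.327 CPM at 0 h, a rise of 2.37 ± 0.40 (adjusted p = 0.0379, edgeR). The gene was included through groups in auxin alone. The call was lost when any 1 of the 4 libraries was left out (adjusted p up to 0.273), with total or fly scaling (adjusted p = 0.145 with fly counts), with limma-voom and with the libraries of the line alone. No LINC gene fell. The next smallest p-values belonged to LINC00899 (1.01 ± 0.21; adjusted p = 0.0818, edgeR), LINC01554 (2.31 ± 0.59) and LINC00865 (2.40 ± 0.65), which did not pass. A fit with the replicate number as a block called more LINC genes, among them LINC00638 as lower (adjusted p = 0.0434, edgeR). The median of the 143 genes at 2 h was 0.12, and 15 had an unadjusted p under 0.05.

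In PAF1-AID cells 0 of 143 LINC genes were called after 2 h, where 0.149% of all genes were, 0.0673% higher and 0.0818% lower (edgeR). Of the 143, 16 had an unadjusted p under 0.05, and DESeq2's Wald test called 3. The fit with the replicate number as a block also called some, as given in the closing sections. LINC01409 (1.49 ± 0.29; adjusted p = 0.0952, edgeR) and LINC00672 (1.99 ± 0.40; adjusted p = 0.101, edgeR) had the smallest p-values. After 6 h 9 rose and 7 fell, together 11.2% of the LINC genes, where 10.9% of all genes tested were called, 4.2% higher and 6.7% lower. The median log2 fold change was -0.20 for the LINC genes and 0.02 for all genes. The share called in either direction was thus close to that among all genes. By direction, 6.3% of the LINC genes were higher and 4.9% lower. With fly counts as library sizes 5 were called higher and 16 lower, where 15.2% of all genes were called, 1.42% higher and 13.8% lower, and the medians were -0.59 for the LINC genes and -0.37 for all genes. LINC01128, LINC01145, LINC01315 and LINC02749 lost their call under it, with adjusted p of 0.132 to 0.285 (edgeR).

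**Figure D2:**
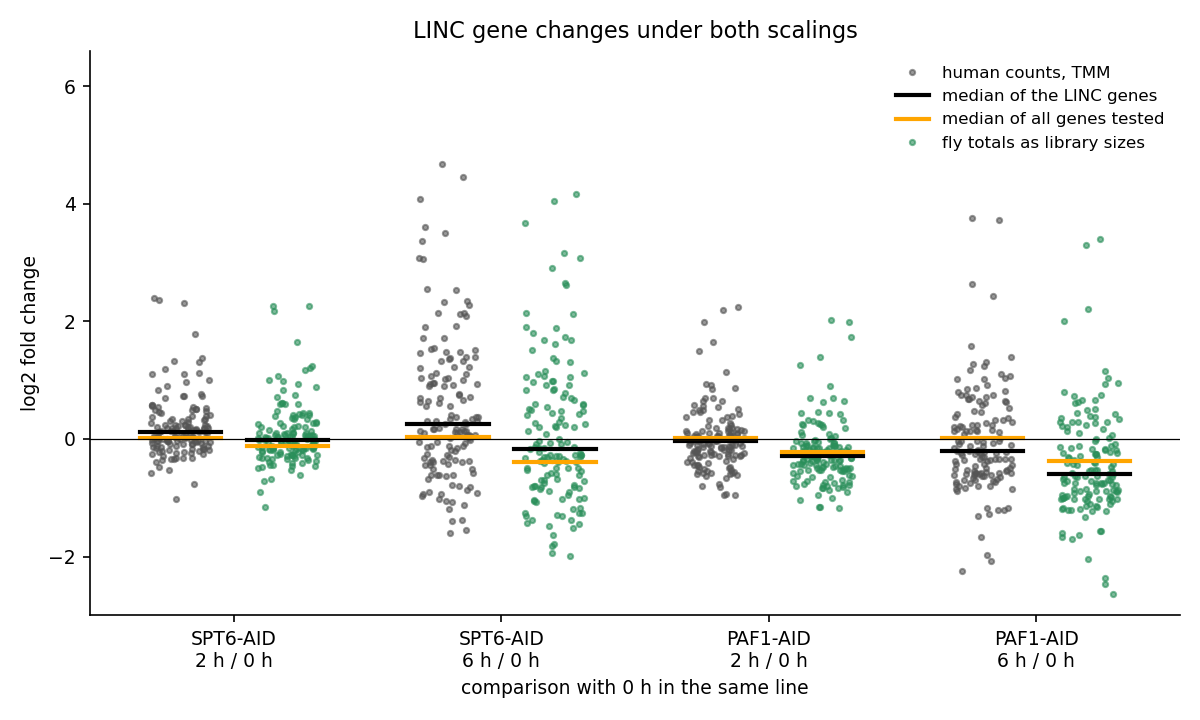
Log2 fold change (vertical axis) of each of the 143 LINC genes in 4 comparisons with 0 h (horizontal axis), with human counts scaled by TMM (grey) and with fly totals as library sizes (green); black bars are medians of the LINC genes and orange bars medians of all genes tested. In SPT6-AID cells at 6 h the black bar lies above the orange one under both scalings (0.25 and 0.04; -0.17 and -0.39), and in PAF1-AID cells at 6 h below it (-0.20 and 0.02; -0.59 and -0.37).

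The genes that rose most in PAF1-AID cells were LINC01554 (3.75 ± 0.65), LINC00865 (3.71 ± 0.56), LINC00672 (2.64 ± 0.40) and LINC02348 (2.43 ± 0.45). All of these averaged under 1 CPM at 0 h in both lines and were included through groups in auxin alone. LINC01554 stood on 1 and 3 counts in the 0 h libraries, and its ratio from counts alone was 13.2 (95% exact interval for counting error 4.93 to 49.5). LINC01409 (1.57), LINC01315 (1.02), LINC02749 (1.01), LINC01145 (0.92) and LINC01128 (0.75) also rose. LINC01128, the second most abundant LINC gene, had 42.0 and 47.8 CPM at 6 h, against 28.5 and 28.6 CPM at 0 h. Of the 9, LINC00672 and LINC00865 were called in all 4 leave-outs, LINC01554 in 3, LINC02348 and LINC01409 in 2, LINC01145 in 1 and the other 3 in 0. The largest adjusted p on leaving out 1 library was 0.054 for LINC01554, 0.0818 for LINC02348, 0.0886 for LINC01409 and 0.102 to 0.300 for the other 4 (edgeR). LINC01145, LINC01409 and LINC01128 have near-identical copies elsewhere in the genome.

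Among the 7 genes that fell in PAF1-AID cells at 6 h, LINC00659 had 0.531 and 0.507 CPM, against 2.54 and 2.18 CPM at 0 h (-2.07 ± 0.31; adjusted p = 0.00366, edgeR). LINC00339, whose RNA is described as acting on CDC42, had 0.714 and 0.997 CPM at 6 h, against 3.90 and 3.33 CPM at 0 h (-1.97 ± 0.28). LINC00920 (-1.66 ± 0.24) and LINC00909 (-1.18 ± 0.16) likewise had no overlap between 6 h and 0 h, and these 4 kept their call in every leave-out. LINC01135 (-2.25 ± 0.58), LINC01618 (-1.21 ± 0.32) and LINC00630 (-1.17 ± 0.26) were called with all libraries and lost the call on leaving out 1 library, with adjusted p up to 0.170, 0.269 and 0.165 (edgeR). The count of calls in PAF1-AID cells was 7 without PAF1-AID 6h replicate 3, 8 without PAF1-AID 0h replicate 4 and 10 without PAF1-AID 0h replicate 3.

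The lines do not share libraries, and their 6 h lists can be set side by side. LINC00672, LINC00865, LINC01554, LINC02348, LINC01409 and LINC01315 rose in both, which is 18.2% of the 33 genes that rose in SPT6-AID cells and 66.7% of the 9 that rose in PAF1-AID cells. LINC00339, LINC00630, LINC00659, LINC00909 and LINC00920 fell in both, which is 45.5% of 11 and 71.4% of 7. No gene was called in opposite directions. Of these 11, LINC00672 and LINC00865 kept the call in every leave-out in both lines. However, LINC00865, LINC02348 and LINC01554 were included through 6 h groups alone, and LINC00672 through 2 h and 6 h groups alone. The overlap of the lines' calls among all genes is not given here, so the shares above do not set LINC genes apart. With fly counts as library sizes LINC01315 was not called in either line (adjusted p = 0.124 in SPT6-AID cells and 0.132 in PAF1-AID cells, edgeR).

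LINC00672 lies 3398 bases beyond the end of LASP1 on the same strand of chromosome 17 (38925168 to 38929384), and its RNA has been described as a p53-induced repressor of LASP1 in endometrial cancer cells; GENCODE release 29 types it as protein-coding. In SPT6-AID cells it had 0.528 and 0.327 CPM at 0 h, 2.86 and 1.63 CPM at 2 h, and 5.86 and 3.87 CPM at 6 h. In PAF1-AID cells it had 0.838 and 0.417 CPM at 0 h, 2.34 and 2.36 CPM at 2 h, and 4.22 and 2.99 CPM at 6 h. The libraries of the 3 times did not overlap in either line. LINC00672 was included through the 2 h and 6 h groups alone, so being higher there was a condition of the choice. LASP1, an actin-binding focal adhesion protein gene, had log2 fold changes of -0.34 in SPT6-AID cells and 0.25 in PAF1-AID cells at 6 h, neither of which passed (adjusted p = 0.105 and 0.297, edgeR). The SPT6-AID response of LINC00672 at 6 h exceeded the PAF1-AID response by 0.86 ± 0.56, which did not pass (adjusted p = 0.541, edgeR).

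**Figure D3:**
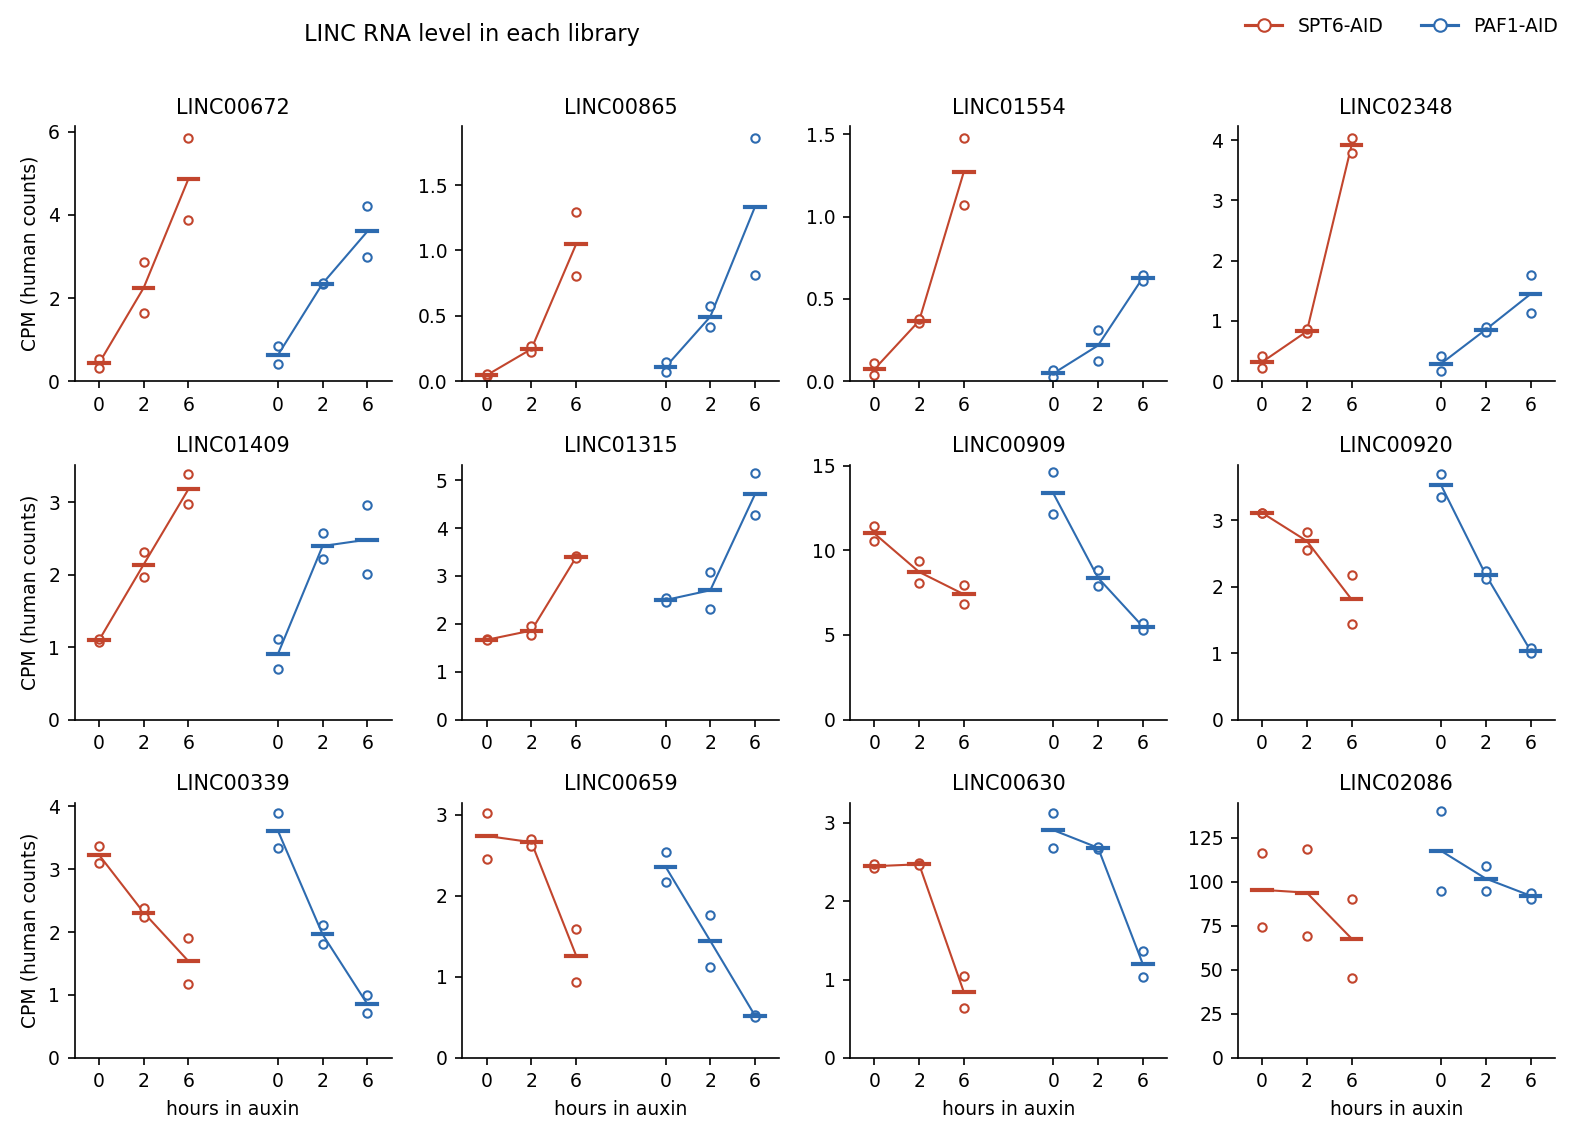
CPM over human counts (vertical axes, each from 0) at 0, 2 and 6 h in auxin (horizontal axes) in SPT6-AID cells (red) and PAF1-AID cells (blue) for the 11 LINC genes called in the same direction in both lines at 6 h and for LINC02086; circles are libraries and thick bars means of 2. In LINC00672 and LINC00865 every 2 h library lies above every 0 h library and below every 6 h library of its line, and the LINC02086 libraries overlap between times in SPT6-AID cells, while in PAF1-AID cells both 6 h libraries lie below those of 0 h and 2 h.

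LINC00865, on chromosome 10 (89829510 to 89840861), had 0.0364 and 0.0546 CPM at 0 h, 0.220 and 0.272 CPM at 2 h, and 1.29 and 0.801 CPM at 6 h in SPT6-AID cells. In PAF1-AID cells it had 0.148 and 0.0694 CPM at 0 h, 0.572 and 0.415 CPM at 2 h, and 1.86 and 0.811 CPM at 6 h. Every later library lay above every earlier one in both lines. Of its exonic bases 40.3% overlap exons of a gene on the opposite strand, and the strand setting of the counting is not given in the sources used here. LINC00909, which lies within ZNF407 on the opposite strand, had 11.4 and 10.6 CPM at 0 h, 9.38 and 8.08 CPM at 2 h, and 7.97 and 6.84 CPM at 6 h in SPT6-AID cells. In PAF1-AID cells it had 14.6 and 12.1 CPM at 0 h, 8.87 and 7.90 CPM at 2 h, and 5.31 and 5.69 CPM at 6 h. Its levels were ordered by time without overlap in both lines.

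Promoters of 5 genes that moved together in both lines are printed to show where their transcription starts and which common motifs lie there. They are 300 bases from RefSeq on GRCh38.p14, 250 before and 50 after the annotated start, printed 5′ to 3′ on the gene's strand, with capitals for matches to CCAAT or TGACGTCA on either strand. LINC00865 (chr10:89829243-89829542, plus strand), LINC01409 (chr1:778548-778847, plus strand) and LINC01315 (chr22:42369159-42369458, minus strand) rose. LINC00630 (chrX:102768903-102769202, plus strand) and LINC00920 (chr16:66408274-66408573, plus strand) fell.
LINC00865: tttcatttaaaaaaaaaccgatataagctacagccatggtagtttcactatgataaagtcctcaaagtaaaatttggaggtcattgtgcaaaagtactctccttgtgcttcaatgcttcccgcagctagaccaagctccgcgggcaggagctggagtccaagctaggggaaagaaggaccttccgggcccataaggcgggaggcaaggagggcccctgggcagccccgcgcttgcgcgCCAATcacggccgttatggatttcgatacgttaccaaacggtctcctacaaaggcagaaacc
LINC01409: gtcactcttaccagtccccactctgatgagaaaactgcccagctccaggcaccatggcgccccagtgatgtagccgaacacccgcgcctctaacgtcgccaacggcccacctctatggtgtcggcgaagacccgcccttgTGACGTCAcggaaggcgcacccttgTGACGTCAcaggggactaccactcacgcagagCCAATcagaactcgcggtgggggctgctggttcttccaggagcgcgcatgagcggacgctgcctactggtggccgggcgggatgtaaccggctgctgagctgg
LINC01315: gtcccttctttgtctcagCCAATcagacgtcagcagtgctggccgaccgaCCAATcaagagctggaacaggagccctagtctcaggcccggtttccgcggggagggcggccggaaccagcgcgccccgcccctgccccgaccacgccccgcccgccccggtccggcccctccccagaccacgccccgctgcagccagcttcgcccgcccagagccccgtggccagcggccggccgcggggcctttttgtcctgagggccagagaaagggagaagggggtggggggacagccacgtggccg
LINC00630: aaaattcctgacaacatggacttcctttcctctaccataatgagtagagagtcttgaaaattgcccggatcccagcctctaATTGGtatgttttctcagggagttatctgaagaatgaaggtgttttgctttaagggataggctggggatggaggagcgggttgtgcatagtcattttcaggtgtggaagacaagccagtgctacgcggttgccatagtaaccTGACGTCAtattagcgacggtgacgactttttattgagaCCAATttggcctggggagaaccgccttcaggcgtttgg
LINC00920: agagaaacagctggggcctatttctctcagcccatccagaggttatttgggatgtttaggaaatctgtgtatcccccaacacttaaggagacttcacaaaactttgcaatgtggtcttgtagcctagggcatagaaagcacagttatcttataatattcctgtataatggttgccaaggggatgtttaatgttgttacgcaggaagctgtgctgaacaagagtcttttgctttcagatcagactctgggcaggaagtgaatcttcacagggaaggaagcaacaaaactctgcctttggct

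TGACGTCA, the cyclic AMP response element that CREB and ATF proteins bind, stands in the promoters of LINC01409, where it occurs at 2 places, and of LINC00630. It was found in 3.09% of the 97 LINC promoters available and in 1.85% of all 35116 promoters. Of the genes with a promoter, 1 of 21 that rose in SPT6-AID cells at 6 h, 2 of 9 that fell and 0 of 67 not called held it. The CCAAT box, searched by those letters, was found in 39.2% of LINC promoters and 34.6% of all promoters, TATAAA in 13.4% and 11.5%, and TGANTCA, the AP-1 site, in 16.5% and 7.71%. GGGCGG was found in 45.4% and 44.95%, and GCGTG in 25.8% and 36.5%. All were searched on both strands, and no one of these motifs contains another. The RefSeq starts of LINC00865, LINC01409, LINC01315, LINC00630 and LINC00920 lie within 28 bases of the GENCODE starts. Those of LINC00339 and LINC00659, which fell in both lines and are not printed, lie 633 and 1444 bases away. Of the 96 LINC promoters with a GENCODE start, 60 had the RefSeq start within 100 bases of it. A match is a description of these letters, not evidence of binding.

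The difference between the responses of the lines (SPT6-AID minus PAF1-AID, each from its own 0 h) was tested directly. At 2 h 0 LINC genes differed, where 0.0337% of all genes did, 0.0144% higher and 0.0192% lower (edgeR); 4 had an unadjusted p under 0.05 and DESeq2's Wald test called 0. At 6 h 5 differed, all with a higher value in SPT6-AID cells, where 3.74% of all genes differed, 0.62% higher and 3.12% lower. In the fit with the replicate number as a block more differed, some with a lower value in SPT6-AID cells. LINC00702 rose by 4.67 in SPT6-AID cells and had -0.12 in PAF1-AID cells, a difference of 4.79 ± 1.10 (adjusted p = 0.0418, edgeR), but it was included through SPT6-AID cells at 6 h alone. In PAF1-AID cells it had 0.166 and 0.203 CPM at 6 h, against 0.320 and 0.116 CPM at 0 h. LINC01006 had 1.37 in SPT6-AID cells and -0.49 in PAF1-AID cells (difference 1.85 ± 0.44), LINC01357 0.96 and -0.70 (1.66 ± 0.37), LINC00899 2.14 and 0.58 (1.56 ± 0.30), and LINC00511 1.12 and -0.03 (1.15 ± 0.26). With fly counts as library sizes the differences were 1.11 to 4.70 and 0 passed. None of the 5 was called in all 8 leave-outs, where the adjusted p reached 0.103 to 0.253 (edgeR).

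**Figure D4:**
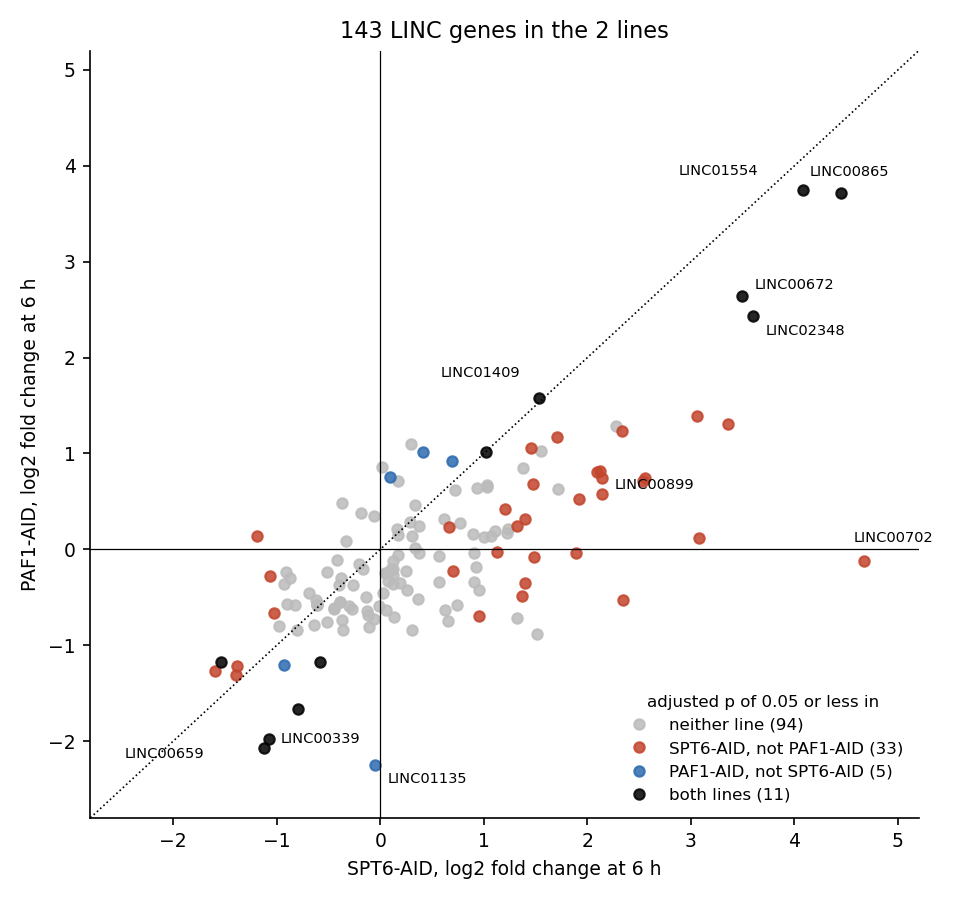
Log2 fold change at 6 h against 0 h in SPT6-AID cells (horizontal axis) and in PAF1-AID cells (vertical axis) for 143 LINC genes, coloured by the line in which the adjusted p was at most 0.05; the dotted line marks equal change. The 11 genes called in both lines lie in the upper right or lower left, 33 were called in SPT6-AID and not PAF1-AID cells, 5 in PAF1-AID and not SPT6-AID cells, and LINC00702 lies far to the right near 0 on the vertical axis.

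In the fit without the replicate number, the lines were not shown to differ for most of the genes called in 1 line. With the replicate number as a block more LINC genes differed. The differences for LINC00680 (-1.33 ± 0.35) and LINC01089 (1.83 ± 0.57) did not pass (adjusted p = 0.0658 and 0.117, edgeR). LINC00680 did pass in the fit with the replicate number as a block, as given in the closing sections. LINC01135 starts 801 bases from the start of JUN, the AP-1 subunit gene, on the opposite strand. It had 0.266 and 0.169 CPM in PAF1-AID cells at 6 h, against 1.01 and 1.23 CPM at 0 h, and in SPT6-AID cells 1.20 and 1.10 CPM at 6 h, against 1.69 and 0.709 CPM at 0 h. The SPT6-AID libraries overlapped between times and the PAF1-AID libraries did not, while the difference of 2.20 ± 0.78 did not pass (adjusted p = 0.171, edgeR). JUN itself rose by 1.61 in SPT6-AID cells and had 0.10 in PAF1-AID cells. Before auxin 0 LINC genes differed between PAF1-AID and SPT6-AID cells, where 0.0337% of all genes did, 0.00481% higher and 0.0289% lower (edgeR); 9 had an unadjusted p under 0.05 and DESeq2's Wald test called 0. LINC01411 had the smallest p, at 1.87 ± 0.57 (adjusted p = 0.538, edgeR).

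Position was taken from GENCODE release 29 on GRCh38 for 142 genes; LINC02348 had no entry there. Of these 19 overlap a protein-coding gene, 8 start within 2 kb of a coding gene's start on the opposite strand, 31 start within 20 kb beyond a coding gene on the same strand and 84 are elsewhere. At 6 h in SPT6-AID cells 8 of the 31 downstream genes rose and 3 fell, 19 of the 84 others rose and 4 fell, 4 of the 19 overlapping genes rose and 3 fell, and of the 8 divergent genes LINC01124, beside SP5, rose and LINC01547, beside FAM207A, fell. Median changes were 0.38 for downstream, 0.31 for other, 0.13 for overlapping and -0.02 for divergent genes. The neighbour was the coding gene that placed the LINC gene in its class, or otherwise the nearest one. It was tested for 115 of the 142, counted once for each LINC gene. In SPT6-AID cells at 6 h the median change of these neighbours was -0.26, and 7 rose and 33 fell. Of all genes tested 8.76% rose and 16.4% fell, which applies to the class counts above as well. Those class counts include genes that the rule admitted for being high at 6 h.

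Among the LINC genes that rose in SPT6-AID cells, 28 had a neighbour that was tested. Of these neighbours 2 rose and 8 fell, where 7 and 33 of all 115 did. A neighbour was counted once for each LINC gene beside it, so SLC16A1 was counted for both LINC01356 and LINC01357. LINC00926 starts 1084 bases beyond TCF12, a transcription factor gene, and rose by 2.33 while TCF12 fell by 0.82 on the log2 scale. LINC00865 rose by 4.45 while KIF20B, a mitotic kinesin gene 54571 bases away, fell by 1.67. LINC01356 and LINC01357 have the lactate transporter gene SLC16A1 as their neighbour, and rose by 1.46 and 0.96 while SLC16A1 fell by 0.73. Of the genes that fell, LINC00909 and LINC00294 lie within ZNF407 and TCP11L1, which fell by 1.44 and 0.87. In PAF1-AID cells at 6 h the neighbour was also called for 1 LINC gene: LINC00865 rose and KIF20B fell by 1.16.

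**Figure D5:**
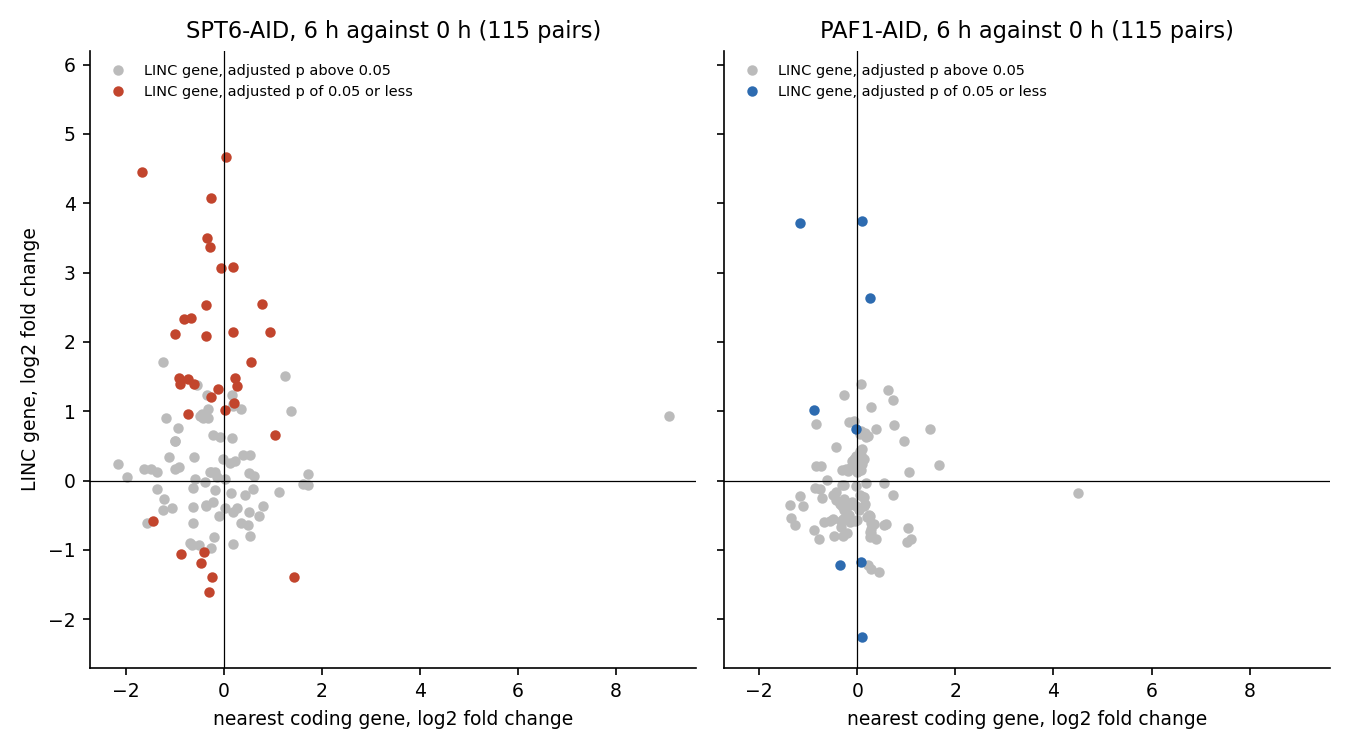
Log2 fold change at 6 h against 0 h of each LINC gene (vertical axes) and of its neighbouring protein-coding gene (horizontal axes) in SPT6-AID cells (left) and PAF1-AID cells (right) for 115 pairs in which both were tested. The neighbour is the coding gene that placed the LINC gene in its position class, or otherwise the nearest one. Coloured points are LINC genes with an adjusted p of at most 0.05. The LINC genes that rose lie on both sides of 0 for their neighbour in SPT6-AID cells, among them LINC00865 at 4.45 with its neighbour KIF20B at -1.67.

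Counting could blur some of these values. At least 300 bases at 97% identity or more are shared with another gene by 22 of the 143 genes, exons overlap those of an opposite-strand gene in 42 and those of a same-strand gene in 15. The genes that rose in SPT6-AID cells at 6 h included 1 with such a copy and 9 with opposite-strand overlap, and those that fell 3 and 3. The genes that rose, fell and were not called had median exon lengths of 2089, 2969 and 2951 bases. Of 33, 11 and 99 genes, 2, 1 and 6 had a single exon.

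Genes of the machinery that degrades or ends such RNAs were read from lists. Of 26 tested genes of the nuclear RNA exosome and its adaptors 11 fell and 1 rose in SPT6-AID cells at 6 h. Of all genes 16.4% fell and 8.76% rose there. In PAF1-AID cells at 6 h 4 fell and 0 rose, where 6.7% of all genes fell and 4.2% rose. Values with fly counts as library sizes are not given for the lists. ZCCHC8, the scaffold of the nuclear exosome targeting complex, had 16.1 ± 1.62 CPM in SPT6-AID cells at 6 h and 42.6 ± 0.225 CPM at 0 h (SD, n = 2 each), and fell by 1.41 ± 0.12 on the log2 scale. RBM7, the RNA-binding subunit of that complex, fell by 1.02 ± 0.17, and the exosome core subunits EXOSC3 and EXOSC2 by 1.15 ± 0.15 and 0.94 ± 0.12. PABPN1, a nuclear poly(A)-binding protein gene, rose by 0.82 ± 0.27. In PAF1-AID cells ZCCHC8, EXOSC3, EXOSC8 and ZCCHC7 fell by 0.50 to 0.87.

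Of 17 Integrator genes 8 fell and 0 rose in SPT6-AID cells at 6 h, where 16.4% of all genes fell and 8.76% rose. In PAF1-AID cells at 6 h 6 fell and 1 rose, where 6.7% of all genes fell and 4.2% rose. INTS6, a subunit of the phosphatase module, fell by 1.65 ± 0.21 in SPT6-AID cells and by 1.75 ± 0.21 in PAF1-AID cells. INTS2, INTS7, INTS14 and NABP1 also fell in both lines. Of 26 long non-coding RNA genes with other names 1 rose and 4 fell in SPT6-AID cells at 6 h, where 8.76% of all genes rose and 16.4% fell, and 2 rose and 2 fell in PAF1-AID cells, where 4.2% rose and 6.7% fell. KCNQ1OT1, the imprinted antisense RNA of KCNQ1, rose by 1.49 ± 0.26 and 2.00 ± 0.27 in SPT6-AID and PAF1-AID cells, and MIR17HG, host of the miR-17 cluster, fell by 3.30 ± 0.58 and 2.46 ± 0.49. MALAT1, an abundant nuclear RNA, had 0.13 ± 0.30 and -0.04 ± 0.30, and NEAT1, the scaffold of paraspeckles, -0.12 ± 0.47 and 0.89 ± 0.48, none of which passed. Of 18 tested LINC genes listed for a described RNA or product, LINC00672, LINC00899, LINC01089 and LINC00511 rose and LINC00265 and LINC00261 fell in SPT6-AID cells at 6 h; LINC00261, an RNA of endoderm-derived tissue, had 0.130 ± 0.137 CPM at 6 h and 0.646 ± 0.0130 CPM at 0 h, below the limit of 1 CPM. In PAF1-AID cells LINC00672 rose and 0 fell; the shares of all genes are those given above.

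The LINC genes whose pattern over the 6 group means was most like LINC00672 on the log2(CPM + 0.5) scale were LINC01409 (Pearson r = 0.971), LINC00926 (0.936) and LINC02802 (0.924). Those most like LINC02086 were LINC02228 (0.975), LINC01748 (0.968) and LINC00641 (0.963). Groups of 1 line share their cells, 142 genes were ranked for each, and these values describe these libraries alone.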

How the data were processed

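RNA was measured in 12 libraries of DLD-1 cells, 2 in each of 6 groups. The authors deposited whole-number read counts per gene for human and fly genes in 1 table; the submitters' processing notes name featureCounts 2.0.0, STAR 2.7.5, cutadapt 1.14 and the builds GRCh38 and BDGP6. The annotation release, the strand setting and how fly material was added are not given in the sources used here. Human counts were filtered with filterByExpr, scaled by TMM and fitted with 6 group means by edgeR 4.0.16 (R 4.3.3; limma 3.58.1, DESeq2 1.42.0 for alternatives); the 20791 genes tested share 1 Benjamini-Hochberg adjustment, with a threshold of 0.05. The fit was tested on simulated data. CPM is over human counts. Intervals cover counting error alone. Genes named were, of those past the threshold without overlap of libraries, the 8 largest changes in each direction per comparison with 0 h and the 4 largest per comparison between lines, the 10 most abundant, the 3 on each side of the limit and list genes that passed; other genes named were chosen after their values were seen. The members and lists were chosen with earlier results of these data known. Positions came from GENCODE 29 and promoters from RefSeq. Some neighbouring genes are not reported here.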

Additional observations from a re-analysis of the deposited data

Results flagged for a closer look

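A test of the difference between the responses of the lines at 6 h (SPT6-AID minus PAF1-AID, log2, edgeR) called 5 LINC genes, of which LINC00511 is given above and the 4 with the largest differences are given here. The differences were 4.791 for LINC00702 (adjusted p = 0.0418, edgeR), 1.855 for LINC01006 (adjusted p = 0.0474, edgeR), 1.656 for LINC01357 (adjusted p = 0.0371, edgeR) and 1.563 for LINC00899 (adjusted p = 0.0244, edgeR). With fly counts as library sizes their adjusted p was 0.108, 0.148, 0.116 and 0.175 (edgeR). They were called in 1, 1, 1 and 3 of 8 leave-outs. LINC00702 was included through SPT6-AID cells at 6 h alone.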

How the results depend on the processing

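Counts of called LINC genes depended on the setting, and the cause was not tested. Shares of all genes called are not given in this section, so these counts do not set LINC genes apart from all genes. In SPT6-AID cells at 2 h the count of 1 was 0 with total counts, fly totals, limma-voom or the line alone, 7 with no filter and 4 with DESeq2's Wald test, and 0 to 1 on leaving out a library. At 6 h 44 became 23 to 47 on leaving out a library. In PAF1-AID cells the 0 at 2 h became 4 with no filter and 3 with DESeq2's Wald test, and the 16 at 6 h became 7 to 18 on leaving out a library. For the difference of responses at 6 h, 5 became 1 with total counts, 0 with fly totals, 13 with no filter, 11 with DESeq2's Wald test and 0 to 4 on leaving out a library. The 0 between the lines at 0 h became 2 with no filter. Leave-outs gave 0 for PAF1-AID at 2 h, the difference at 2 h and the lines at 0 h. The replicate numbers are shared across times, without a label that says what they mark. With the replicate block the counts were 15 and 89 in SPT6-AID cells at 2 h and 6 h, 13 and 61 in PAF1-AID cells, and 1 and 37 for the difference at 2 h and 6 h. The 37 held 33 higher and 4 lower, LINC00680, LINC01128, LINC01963 and LINC00294 (adjusted p = 0.000305, 0.0084, 0.0174 and 0.0344, edgeR), and at 2 h in SPT6-AID cells the block called LINC00638 lower (adjusted p = 0.0434, edgeR), so that not all differences were higher and not 0 fell. Deviations of same-numbered libraries correlated at 0.711 to 0.899. The comparison of the lines at 0 h could not be blocked, because the lines carry different replicate numbers. For single named genes 741 alternatives gave 608 with the call and direction kept, 133 with the call lost and 0 reversed. A library left out leaves 1 in its group, assumed to vary like the others.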

Other observations

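Among the 191 tested LINC genes below 1 CPM in every group, 31 rose and 3 fell in SPT6-AID cells at 6 h (edgeR). Of all genes 8.76% rose and 16.4% fell there, and the median log2 fold change of the 191 was 0.65. In PAF1-AID cells at 6 h 4 rose and 1 fell, where 4.2% and 6.7% of all genes did, with a median of 0.05. A gene was tested only if it passed the filter on low counts. Such rare genes could pass it through the libraries of a group where they were high, among them SPT6-AID cells at 6 h. These counts and medians therefore describe the genes that the filter kept.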
